A study of Mus musculus with 22 samples.

Results

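The genes of acetylcholine signalling were followed in the brains of mice of high and low social rank. Of the 24421 genes listed in both deposited count tables, 10 were taken by their symbol, namely Chat, Slc5a7, Slc18a3, Ache, Chrm1, Chrm2, Chrm3, Chrna4, Chrna7 and Chrnb2. Total RNA of the right brain hemisphere was sequenced from 22 group-housed C57B6/J OlaHsd mice. Dominant mice were compared with submissive ones (7 against 7 in males, 4 against 4 in females), with ranks set in the tube test, in which the mouse that is pushed backwards out of a narrow tube loses, at 10 to 12 weeks of age. The labels name no transgene or drug, and a dominant and a submissive mouse came from each cage. Mice of equal replicate number have the same cage code, and females of replicates 3 and 4 carry the codes Gr1 and Gr2 in place of a cage number. The paper states that intermediate females were put together in new groups of 4 and ranked again a week later. The labels do not say whether Gr1 and Gr2 are such groups, so housing and rank history may differ between the female cages.

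Acetylcholine is made from choline and acetyl-CoA in the terminals of cholinergic neurons, loaded into vesicles, released, and split by acetylcholinesterase in the synaptic cleft, after which choline is taken up again. In the mouse brain the cholinergic cell bodies sit in the basal forebrain, the striatum, the medial habenula, the mesopontine tegmentum and the motor nuclei, whereas the receptors are made by many kinds of neurons. Muscarinic receptors signal through G proteins, and nicotinic receptors are ion channels built from several subunits.

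Between 12403943 and 16488762 reads per mouse were counted on genes. Males and females were deposited in separate count tables, so sex, table and any difference between the sequencing runs cannot be told apart. The Y-linked gene Ddx3y had between 146 and 177 CPM (counts divided by the TMM-adjusted library size, a relative level) in males and 0 counts in each female. In whole-hemisphere RNA, fewer cells of a type and less RNA per cell cannot be told apart. The tissue label was met by 6 markers of glutamatergic forebrain neurons, which summed to 517 to 703 CPM per mouse, and the cholinergic markers Chat, Slc5a7 and Slc18a3 were detected in every mouse. Dominant male 1 stood apart, with 78.8 CPM summed over 6 cerebellar markers against 339.8 to 621 CPM in the other males and 445 to 694 CPM in females. A submissive female stood apart in 3 pituitary markers, which summed to 22.5 CPM. The median of submissive females was 2.18 CPM, and dominant females had at most 3.00 CPM. All 10 genes passed the filter on low counts in males and in females, and the thinnest data were those of Slc18a3, with 16 to 43 counts per mouse.

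Chat and Slc18a3 form the cholinergic locus, and their starts lie 1059 bases apart. In mm10, Chat spans chr14:32408203-32465909 on the minus strand with 16 exons, and the single exon of Slc18a3, chr14:32462437-32464850 on the same strand, lies within that span without sharing an exon base with Chat. Slc5a7 lies at chr17:54273590-54299034 and Ache at chr5:137288254-137294466. Of the 10 genes, 9 had a promoter entry in the RefSeq table of GRCm38.p6 (250 bases before to 50 after the start), and those of the 3 genes that define a cholinergic neuron and of Ache are shown because their levels are compared first. Capitals mark the GC box GGGCGG and the E-box CACGTG on either strand, with overlapping matches counted separately. Of 32851 promoter windows of 300 bases, 35.7% held the GC box and 7.15% the E-box.
Chat: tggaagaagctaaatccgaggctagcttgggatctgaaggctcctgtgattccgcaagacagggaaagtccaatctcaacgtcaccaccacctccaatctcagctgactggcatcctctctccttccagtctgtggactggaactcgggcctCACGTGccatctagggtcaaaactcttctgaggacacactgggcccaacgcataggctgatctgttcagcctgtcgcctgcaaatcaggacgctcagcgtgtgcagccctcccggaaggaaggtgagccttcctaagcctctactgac
Slc18a3: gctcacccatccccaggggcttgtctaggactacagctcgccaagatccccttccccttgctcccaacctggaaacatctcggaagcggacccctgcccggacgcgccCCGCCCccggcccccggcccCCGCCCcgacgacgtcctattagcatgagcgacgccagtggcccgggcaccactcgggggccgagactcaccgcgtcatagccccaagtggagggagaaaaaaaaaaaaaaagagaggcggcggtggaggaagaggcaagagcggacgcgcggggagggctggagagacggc
Slc5a7: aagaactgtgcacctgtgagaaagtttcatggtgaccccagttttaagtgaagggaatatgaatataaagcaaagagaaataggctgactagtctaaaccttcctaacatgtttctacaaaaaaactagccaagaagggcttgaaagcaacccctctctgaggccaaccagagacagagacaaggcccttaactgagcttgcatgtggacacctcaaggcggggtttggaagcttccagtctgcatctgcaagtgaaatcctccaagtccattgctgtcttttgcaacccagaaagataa
Ache: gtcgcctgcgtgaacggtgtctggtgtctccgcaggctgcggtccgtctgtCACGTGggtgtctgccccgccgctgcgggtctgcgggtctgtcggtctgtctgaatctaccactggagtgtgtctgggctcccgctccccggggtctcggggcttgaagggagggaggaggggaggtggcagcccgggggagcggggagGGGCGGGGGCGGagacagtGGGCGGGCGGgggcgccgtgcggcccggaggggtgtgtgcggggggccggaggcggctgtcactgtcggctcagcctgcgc

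The Chat window (chr14:32465860-32466159, minus strand) held 1 E-box and 0 GC boxes, and the neighbouring Slc18a3 window (chr14:32464801-32465100, minus strand) held 2 GC boxes and 0 E-boxes. The Slc5a7 window (chr17:54298985-54299284, minus strand) held neither motif, and its GC content of 44.7% was below the median of 52.7% over all windows. The Ache window (chr5:137288004-137288303, plus strand) was the richest in GC of the 4, at 74%, and held 4 GC boxes and 1 E-box. These matches describe the letters of the windows and were not compared with expression.

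Per kilobase of exon, the enzyme of breakdown ranked above all receptors and the genes of synthesis and transport ranked lowest. Ache, which splits acetylcholine, had 22.1 ± 2.57 CPM per kilobase (SD, n = 22), followed by the nicotinic β subunit gene Chrnb2 with 17.7 ± 1.06 CPM per kilobase. Every mouse had more Ache than Chrnb2 per kilobase, although the ranges over mice overlapped. Chrm3 with 13.6 ± 1.42 and Chrm1 with 12.9 ± 1.75 CPM per kilobase overlapped widely, with Chrm3 above Chrm1 in 19 of 22 mice. Chrm2 (9.23 ± 0.545 CPM per kilobase) did not overlap Chrm1. It exceeded Chrna7 (7.42 ± 0.578 CPM per kilobase) in 21 mice, and Chrna7 exceeded Chrna4 (6.73 ± 0.757 CPM per kilobase) in 20 mice. Slc5a7 had 4.46 ± 0.793, Chat 2.20 ± 0.337 and Slc18a3 0.805 ± 0.186 CPM per kilobase, and this order held in every mouse. The ranges of Chat and Slc18a3 did not overlap. Of the 10 genes, 8 shared no exon base with another gene. Chrm2 shared 79 of 2036 exon bases with 9330158H04Rik and Chrnb2 shared 8 of 5384 with Adar, both on the opposite strand.

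**Figure D1:**
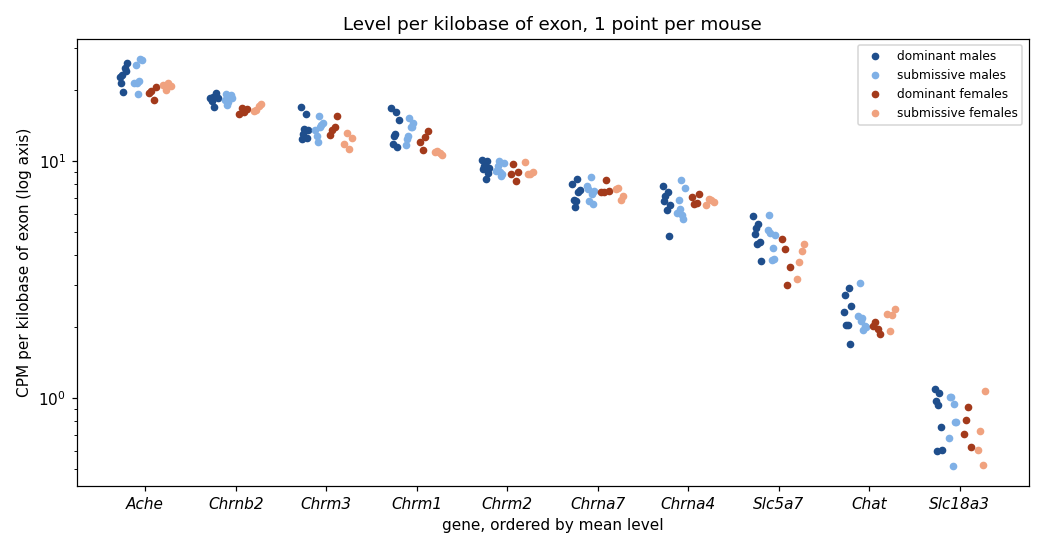
CPM per kilobase of exon on a log axis for the 10 genes, ordered by mean level, with 1 point per mouse and a colour per group. Ache lies highest (18.1 to 26.9 CPM per kilobase) and Slc18a3 lowest (0.518 to 1.09 CPM per kilobase).

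In males, none of the 10 genes differed with rank beyond the spread between mice. Choline acetyltransferase, the enzyme encoded by Chat, had a lowest, median and highest level of 4.74, 6.46 and 8.18 CPM in dominant males and of 5.43, 5.94 and 8.56 CPM in submissive males. Both ranks covered nearly the same range, with the highest values in dominant male 5 and submissive male 2. For Slc5a7, the choline transporter that returns choline to the terminal, the values were 19.6, 25.5 and 30.4 CPM in dominant males and 19.9, 25.3 and 30.6 CPM in submissive males. For Slc18a3, which loads acetylcholine into vesicles, they were 1.45, 2.25 and 2.63 CPM against 1.25, 1.91 and 2.43 CPM. Ache had 43.3, 51.1 and 57.4 CPM in dominant males and 42.5, 48.4 and 59.6 CPM in submissive males. Thus the ranks overlapped over most of their range for each step from synthesis to breakdown.

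The male receptors gave the same picture. Chrm1, a muscarinic receptor gene abundant in forebrain neurons, had 72.2, 81.6 and 105 CPM in dominant and 73.8, 87.3 and 95.5 CPM in submissive males. Chrm3, which like Chrm1 acts through the Gq protein, had 39.3, 42.9 and 53.6 CPM against 38.0, 44.2 and 49.3 CPM. Dominant males 1 and 5 were the highest of all males for both genes. Chrm2, a Gi-coupled receptor that also restrains acetylcholine release from the terminals, ranged from 17.1 to 20.6 CPM in dominant and from 17.6 to 20.4 CPM in submissive males. Of the nicotinic subunits, Chrna4 and Chrnb2 assemble into the main high-affinity receptor for nicotine, and Chrna7 forms channels on its own. Chrna4 ranged from 21.4 to 34.8 CPM in dominant and from 25.3 to 36.9 CPM in submissive males, Chrna7 from 13.4 to 17.6 and from 13.7 to 17.8 CPM, and Chrnb2 from 90.9 to 105 and from 92.7 to 103 CPM. The fitted log2 differences, dominant minus submissive, were at most 0.063 in size, with SE between 0.036 and 0.172, and 8 of 10 were above 0 with a median of 0.019 (-0.0015 over all 14737 genes tested). By edgeR's quasi-likelihood test, with p-values adjusted after Benjamini and Hochberg, 0 of the 10 genes were called at an adjusted p under 0.05 and 0 had an unadjusted p under 0.05, against 0% and 1.32% of all genes tested. DESeq2 also called 0 of the 10. The ranks were separate for 0 of the 10 genes, against 0.00679% of all genes. Without dominant male 1, 0 were called and 3 of 10 estimates were above 0, with -0.016 for Chrm1, -0.030 for Chrm3 and -0.041 for Chrna4. The most precise of the male estimates was that of Chrnb2, whose interval of 2 SE ran from -0.069 to 0.074, whereas that of Slc18a3 ran from -0.29 to 0.40.

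**Figure D2:**
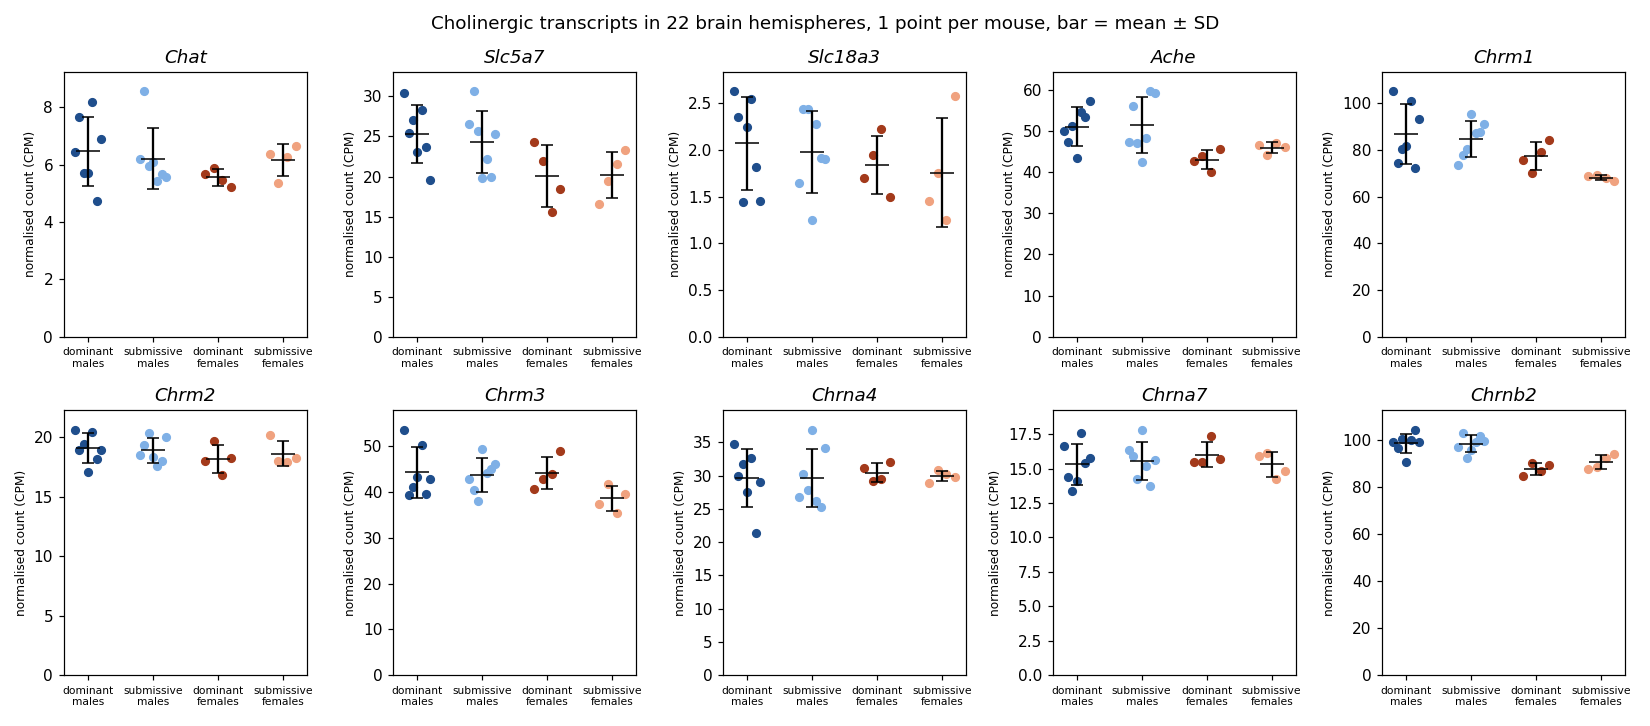
Normalised counts (CPM) of the 10 genes in 4 groups, with 1 point per mouse and bars for the mean and SD. For Chrm1, the dominant females (70.1 to 84.4 CPM) lie above the submissive females (66.8 to 69.3 CPM), while the male groups overlap for each gene.

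In females, Chrm1 and Chrm3 were the members with the smallest p for rank. Chrm1 had 75.6, 70.1, 79.1 and 84.4 CPM in dominant females 1 to 4 and 68.9, 69.3, 67.9 and 66.8 CPM in submissive females 1 to 4. The 4 dominant females were all above the 4 submissive ones, and the closest values were those of the cage mates of replicate 2. The log2 difference was 0.18 (SE 0.048) with an unadjusted p of 0.00155 and an adjusted p of 0.168 (edgeR, Benjamini-Hochberg), so that Chrm1 was not called. In the exact permutation test over the 70 assignments of the females (two-sided) p was 0.0286, the smallest that 4 against 4 allows. Any gene whose ranks do not overlap gives this p, so it adds nothing to the lack of overlap. With ranks exchanged only within the 4 cages, a test added after the data were seen, the exact permutation p was 0.125 for Chrm1, for Chrm3 and for Ache, and this is the smallest that 4 cages allow. Chrm1 was the only member without overlap between the ranks (1 of 10), where 5.66% of all genes tested had none.

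Chrm3 had 40.7, 42.8, 44.0 and 49.0 CPM in dominant females 1 to 4 and 37.5, 41.8, 35.5 and 39.7 CPM in submissive females 1 to 4. The ranks overlapped only through dominant female 1, which lay below submissive female 2. The log2 difference was 0.19 (SE 0.060), with an unadjusted p of 0.00558 and an adjusted p of 0.249 from the same edgeR test, and the exact permutation test gave p = 0.0571 (two-sided). Chrm2, the Gi-coupled receptor, had a log2 difference of -0.035 (SE 0.069, adjusted p = 0.905, edgeR) and ranged from 16.8 to 19.7 CPM in dominant and from 18.0 to 20.2 CPM in submissive females. The 2 other muscarinic receptor genes had log2 differences of -0.062 and 0.16. Of these, 0 had an unadjusted p under 0.05 (edgeR), against 10.5% of all genes. A difference between Gq- and Gi-coupled receptors was not tested.

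Chat ran the other way in 3 of 4 cages. It had 5.67, 5.89, 5.48 and 5.21 CPM in dominant females 1 to 4 and 6.37, 5.37, 6.28 and 6.65 CPM in submissive females 1 to 4, and only submissive female 2 lay within the dominant range. Its log2 difference was -0.15 (SE 0.108, adjusted p = 0.679, edgeR). Ache had 42.8, 43.8, 39.9 and 45.7 CPM in dominant and 46.5, 44.1, 47.1 and 46.0 CPM in submissive females, a log2 difference of -0.097 (SE 0.048, unadjusted p = 0.0570, adjusted p = 0.493, edgeR). Only dominant female 4 reached the range of the submissive females.

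Slc5a7 went both ways between the female cages. In replicates 1 and 2 it had 24.2 and 21.97 CPM in the dominant against 16.5 and 19.5 CPM in the submissive females, whereas in replicates 3 and 4, coded Gr1 and Gr2, it had 15.6 and 18.4 CPM against 21.6 and 23.3 CPM. The dominant female was higher in both numbered cages and lower in both Gr groups. Over all 4 cages the log2 difference was -0.013 (SE 0.112, adjusted p = 0.979, edgeR). It was 0.35 in replicates 1 and 2 alone (adjusted p = 0.739, edgeR) and -0.40 in replicates 3 and 4 alone (adjusted p = 0.0842, edgeR), and the difference between these values was not tested. Neither was called, the level itself differed by -0.058 between females of the Gr groups and of numbered cages (adjusted p = 0.976, edgeR), and the male cages also went both ways, with the dominant male higher in 5 of 7. Slc18a3 ranged from 1.498 to 2.22 CPM in dominant and from 1.26 to 2.58 CPM in submissive females, with a log2 difference of 0.051 (SE 0.222, adjusted p = 0.963, edgeR).

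The nicotinic subunits were close to level in females. The log2 difference was 0.021 (SE 0.054) for Chrna4, 0.059 (SE 0.072) for Chrna7 and -0.049 (SE 0.037) for Chrnb2, with adjusted p-values of 0.935, 0.840 and 0.705 in edgeR's quasi-likelihood test. Chrnb2 had 84.8, 90.4, 87.1 and 89.4 CPM in dominant and 87.7, 88.7, 92.4 and 94.0 CPM in submissive females, which overlapped. In all, 0 of the 10 genes were called for rank in females against 0.0942% of the 14865 genes tested in edgeR. DESeq2 gave an adjusted p for 4 of the 10 genes (Ache, Chrm1, Chrm3 and Chrnb2), called 0 of them and called 0.518% of all genes. At an unadjusted p under 0.05 there were 2 of 10, against 10.5% of all genes, and both were higher in dominant females, as were 6.43% of all genes. The median log2 difference was 0.0041 over the 10 genes and -0.0020 over all genes. The call of Chrm1 depended on single mice and cages. Without dominant female 2 its adjusted p was 0.0281 (edgeR) at a log2 difference of 0.22, and in replicates 3 and 4 alone it was 0.0280 (edgeR) at 0.28, while replicates 1 and 2 alone gave 0.071 (adjusted p = 0.980, edgeR).

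**Figure D3:**
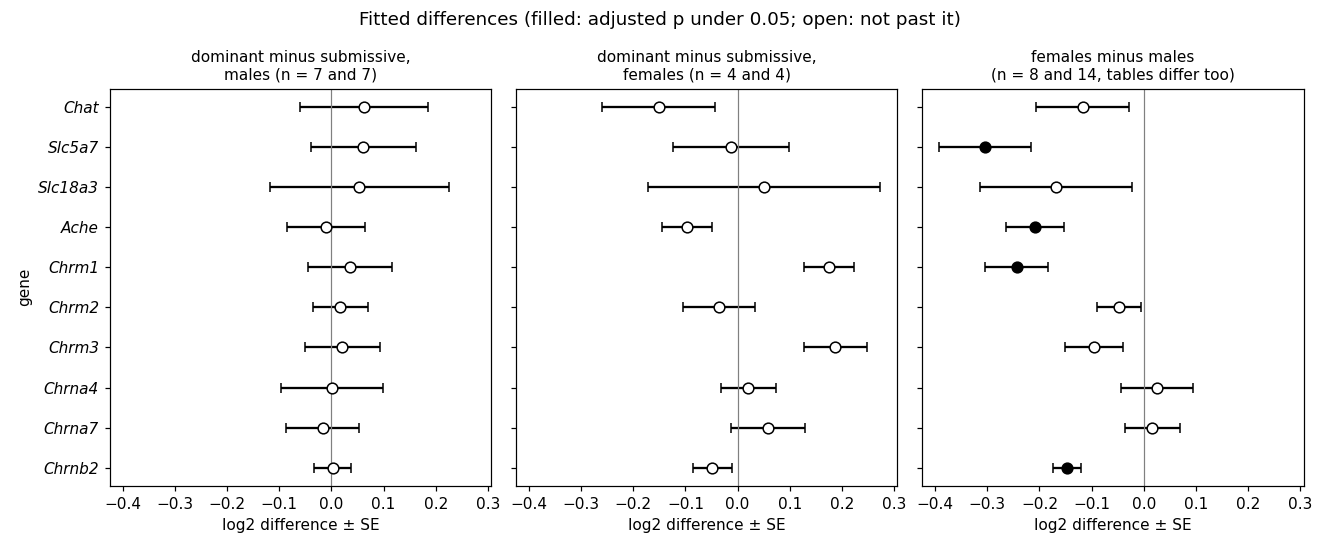
Log2 differences with their SE for the 10 genes, dominant minus submissive in males (left) and in females (middle), and females minus males (right). Filled points have an adjusted p under 0.05 in edgeR's quasi-likelihood test, which 0, 0 and 4 of the genes reached, and the 4 filled points are all below 0.

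Other lists held genes with a small unadjusted p for rank in females, as Chrm1 and Chrm3 did, and their part in these values was not tested. Over all genes tested, 10.5% had an unadjusted p under 0.05, and 6.43% were also higher in dominant females. Of 10 genes through which muscarinic receptors signal, 0 were called and 7 were higher in dominant females at an unadjusted p under 0.05, with a median log2 difference of 0.109. Among them, chosen after its values were seen, the potassium channel gene Kcnq3 had a log2 difference of 0.20 (SE 0.055, adjusted p = 0.168, edgeR). The summed level of the 10 genes was 2093 to 2188 CPM in dominant and 1938 to 2041 CPM in submissive females. Of 6 markers of glutamatergic neurons of cortex and hippocampus, where Chrm1 and Chrm3 are abundant, 4 were higher at an unadjusted p under 0.05 and 0 were called, with a median log2 difference of 0.170. Their summed level was 624 to 703 CPM in dominant and 597 to 641 CPM in submissive females, with none of the 6 at 0. The 4 choroid plexus markers were all lower at an unadjusted p under 0.05, with summed levels of 689 to 852 against 660 to 1003 CPM. Of 3 serotonergic markers, 2 were tested and both were called lower in dominant females (2.28 to 10.5 against 9.53 to 27.2 CPM summed over the 3). Of 6 tested genes of cholinergic neuron identity in basal forebrain and striatum, 0 had an unadjusted p under 0.05, and 1 was above 0.

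Cage mates were compared directly. Of the 4 female cages, the dominant mouse had the higher Chrm1 and the higher Chrm3 in 4, by 0.016 to 0.34 and by 0.034 to 0.31 on the log2 scale. Of the 7 male cages, the dominant mouse was higher in 3 for each of these genes, with differences from -0.28 to 0.51 for Chrm1 and from -0.19 to 0.33 for Chrm3. The highest of these, for both genes, was the cage of dominant male 1. Ache was lower in the dominant female of all 4 cages, by 0.011 to 0.24 in size, but with DESeq2's size factors in place of the TMM factors this held for 3 of 4. In males the dominant mouse had more Ache in 4 of 7 cages. Chat was higher in the dominant mouse of 1 of 4 female and 3 of 7 male cages. Slc18a3 varied most within cages, from -0.75 to 0.84 in males and from -0.78 to 0.82 in females, as its low counts allow. Chrnb2 varied least, by 0.053 on average in males and 0.059 in females.

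**Figure D4:**
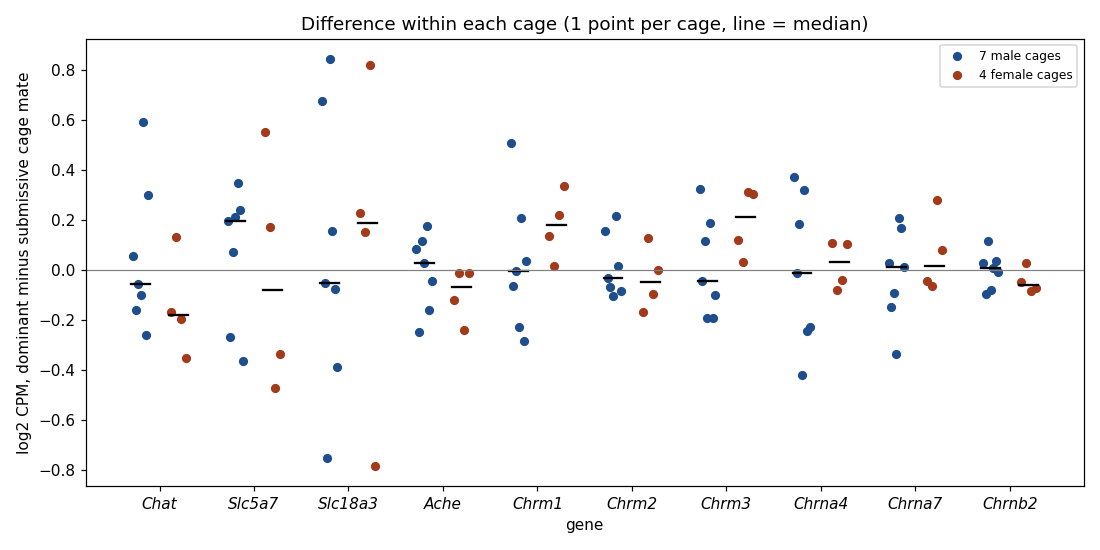
Difference in log2 CPM between the dominant and the submissive mouse of each cage for the 10 genes, with 1 point per cage and a line at the median. The 4 female cages lie above 0 for Chrm1 and Chrm3 and below 0 for Ache, and the 7 male cages lie on both sides of 0 for each gene.

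The rank effect itself was compared between the sexes in a fit over all 22 mice. For Chrm3, the female minus the male effect was 0.17 on the log2 scale (SE 0.112, unadjusted p = 0.132), for Chrm1 it was 0.15 (SE 0.120, unadjusted p = 0.227) and for Chat -0.21 (SE 0.179, unadjusted p = 0.255), all with an adjusted p of 0.999 in edgeR's quasi-likelihood test. Thus 0 of the 10 genes were called, by DESeq2 as well, against 0% of 15233 genes tested, and 0 had an unadjusted p under 0.05, against 3.32% of all genes. Without dominant male 1, 0 of the 10 were called and 1 had an unadjusted p under 0.05 (edgeR), as had 669 of all 15230 genes tested. The rank effects of Chrm1 and Chrm3 in females were therefore not shown to differ from those in males.

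Levels were then compared between cages. Among males, Ache was lowest in both males of replicate 4 (43.3 and 42.5 CPM), and its cage mean was highest in replicates 7 (57.4 and 59.1 CPM) and 6 (53.3 and 59.6 CPM), although single males of other cages reached 56.1 CPM. The cage means of Ache ran from 42.9 to 58.3 CPM in males and from 43.5 to 45.8 CPM in females. In the test of cage with rank in the fit, Ache had an unadjusted p of 0.00979 and an adjusted p of 0.0966 (edgeR), the smallest of the members. In males 0 of the 10 genes were called for cage, against 5.89% of all genes, and 1 of 10 had an unadjusted p under 0.05, against 22.3%. Of the 40 other cholinergic genes tested, 4 were called for cage in males, namely Gna11 (adjusted p = 0.00260, edgeR) and Gnai2 (0.0397), which encode G protein subunits, the nicotinic modulator Lynx1 (0.00872) and the choline kinase gene Chka (0.0106). In females 0 of the 10 genes were called for cage (0.074% of all genes) and 0 had an unadjusted p under 0.05 (5.11% of all genes). Females of the Gr groups minus those of numbered cages gave 0 of 10 calls (0.00673% of all genes) and 0 of 10 at an unadjusted p under 0.05 (5.54% of all genes). DESeq2 called 0 of the members in each of these 3 tests, with an adjusted p for 9 of the 10 for cage in males and for 10 in the other tests.

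Between the tables of females and males, 4 of the 10 genes differed, all lower in females, against 36.2% of all 15233 genes tested in either direction and 17.8% in that direction. Slc5a7 ranged from 15.6 to 24.2 CPM in females (mean 20.1 ± 3.14 SD, n = 8) and from 19.6 to 30.6 CPM in males (24.8 ± 3.65, n = 14). Its log2 difference was -0.30 (SE 0.088, adjusted p = 0.00856, edgeR). Ache had 39.9 to 47.1 CPM in females (44.5 ± 2.35) and 42.5 to 59.6 CPM in males (51.2 ± 5.59), a log2 difference of -0.21 (SE 0.055, adjusted p = 0.00410, edgeR). Ache in females thus lay in the lower part of the male range and below it, and the males of replicate 4 lay at the lower end of that range.

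Of the receptors, Chrm1 had 66.8 to 84.4 CPM in females (72.8 ± 6.31) and 72.2 to 105 CPM in males (85.8 ± 10.3), a log2 difference of -0.24 (SE 0.060, adjusted p = 0.00231, edgeR). Chrnb2 had 84.8 to 94.0 CPM in females (89.3 ± 2.96) and 90.9 to 105 CPM in males (98.7 ± 3.75), a log2 difference of -0.15 (SE 0.027, adjusted p = 0.000116, edgeR). The tables overlapped for each of the 10 genes, where 6.07% of all genes had no overlap. Chat (-0.12, SE 0.090), Slc18a3 (-0.17, SE 0.146), Chrm2 (-0.048, SE 0.042) and Chrm3 (-0.095, SE 0.056) were also below 0 without a call, and Chrna4 (0.025, SE 0.069) and Chrna7 (0.017, SE 0.052) were the members above 0. The partner subunits Chrna4 and Chrnb2 thus had estimates of opposite sign, of which only that of Chrnb2 was called. The median log2 difference was -0.132 over the 10 genes and -0.00015 over all genes. The males of replicates 1 to 4 and those of replicates 5 to 7, taken apart after the data were seen, gave -0.12 and -0.32 for Ache and -0.38 and -0.20 for Slc5a7, and in the latter case Slc5a7 was not called (adjusted p = 0.135, edgeR). The other 3 genes were called with either set of males, while the share of all genes called was 46.1% with replicates 1 to 4 and 27.4% with replicates 5 to 7. All 4 were called without dominant male 1, against 35.5% of all genes. This fit took the 22 mice as independent although they were cage mates. With the counts of each cage summed to 1 sample (7 male against 4 female cages, added after the data were seen), the same 4 were called, with adjusted p-values of 0.00842 for Slc5a7, 0.0202 for Ache, 0.00271 for Chrm1 and 0.00281 for Chrnb2 (edgeR), against 28.6% of all genes.

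The other genes of cholinergic signalling moved in both directions between the tables. Of 51 listed, 42 were tested and 16 were called (38.1%, close to the 36.2% of all genes), 5 higher and 11 lower in females. The genes below are therefore given as values, not as a property of the list. Among the nicotinic subunits, Chrnb3 (-0.48, adjusted p = 0.000645), Chrna6 (-0.32, adjusted p = 0.00983) and Chrna2 (-0.68, adjusted p = 0.0115) were lower in females, 3 of 5 tested. The first of these had 1.25 to 1.89 CPM in females and 1.79 to 2.71 CPM in males. Chrna2 was near the floor, with 0.189 to 0.624 CPM in females and 0.321 to 1.21 CPM in males, so its call rests on few counts. In the fit over females alone, 4 of the 8 listed subunits passed the filter on low counts. Of the other muscarinic receptors, Chrm5 was lower (-0.32, adjusted p = 0.0175), 1 of 2 tested. Of the supply genes, Acly, which makes cytosolic acetyl-CoA (-0.17, adjusted p = 8.32e-06), the choline transporter-like gene Slc44a2 (-0.16, adjusted p = 0.00319) and the butyrylcholinesterase gene Bche (-0.22, adjusted p = 0.00561) were lower. The other called genes of that list, named after their values were seen, were higher in females, the choline kinase gene Chkb (0.48, adjusted p = 0.0229) and Pdha1 (0.078, adjusted p = 0.0362), a subunit of pyruvate dehydrogenase. Of the muscarinic signalling genes, Gnaq (-0.23, adjusted p = 9.22e-06) and Kcnq3 (-0.38, adjusted p = 1.81e-05) were lower, and the phospholipase gene Plcb1 was higher (0.14, adjusted p = 0.00331 in the same edgeR test). Of the assembly genes, Ric3, a chaperone of nicotinic receptors, was higher (0.098, adjusted p = 0.00556) and Ly6h lower (-0.14, adjusted p = 0.0157). In the list of cholinergic neuron identity 0 of 7 tested genes were called, and 2 were lower at an unadjusted p under 0.05.

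Marker lists of brain regions and cell types are given beside the members. Over 17 lists, 19 of 69 tested markers were called (27.5%, below the 36.2% of all genes), 7 higher and 12 lower in females, so that no list is read as having differed. The list for brainstem and cranial motor neurons summed to 12.1 to 33.6 CPM in males and 5.81 to 15.5 CPM in females, with a mean under 1 CPM in each table for 4 of its 6 genes, of which 1 was at 0 in every mouse. Of 4 tested, 2 were called lower in females. These were Slc6a5 (-0.99, adjusted p = 0.000524, edgeR), a glycine transporter gene of glycinergic neurons that makes up most of the sum, and Prph (-0.55, adjusted p = 0.00119, edgeR), a neurofilament gene of motor and sensory neurons. Also called lower in females were 2 of 4 dopaminergic and noradrenergic markers, 2 of 4 oligodendrocyte markers and 1 of 2 serotonergic markers. Called higher were 3 of 9 striatal medium spiny neuron markers, of which 5 were above 0 and 1 was lower at an unadjusted p under 0.05 (median log2 difference 0.032), and 2 of 6 glutamatergic markers of cortex and hippocampus (median 0.105), the latter opposite in direction to Chrm1. The 11 other marker lists had at most 2 called genes each. The part of these lists in the differences of the members was not tested.

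**Figure D5:**
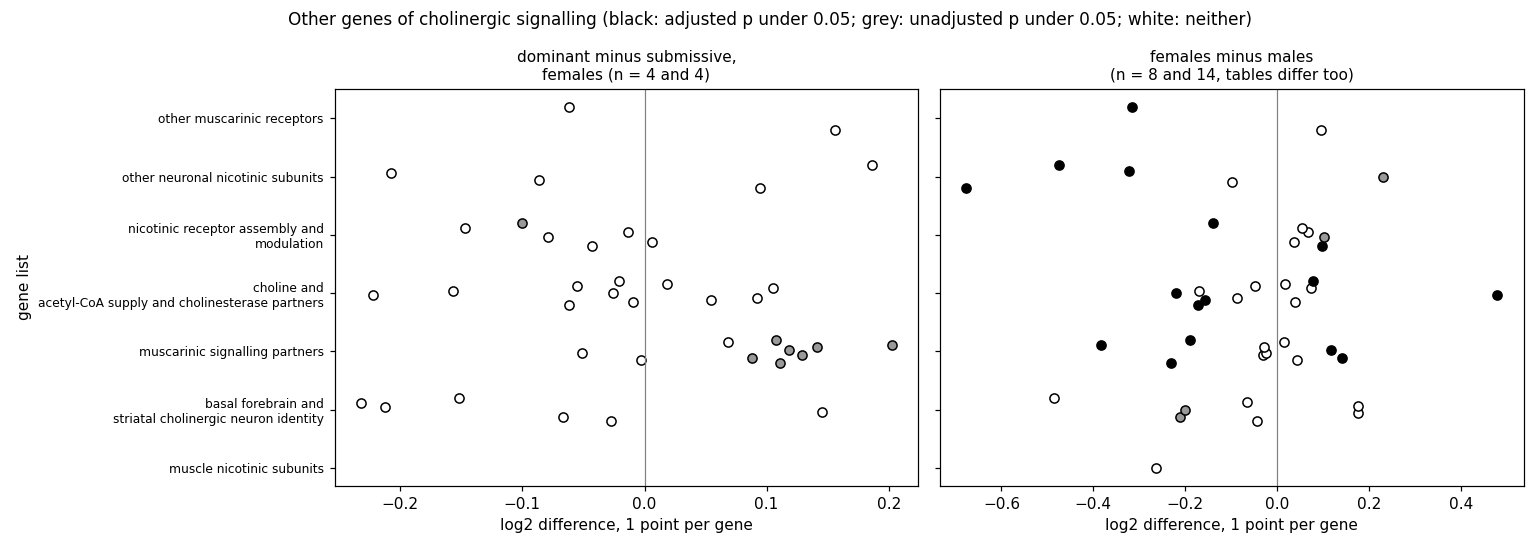
Log2 differences of the other cholinergic genes tested, 1 point per gene and a row per list, dominant minus submissive in females (left) and females minus males (right). Black points have an adjusted p under 0.05 (0 on the left, 16 on the right), grey points an unadjusted p under 0.05, of which 7 belong to the muscarinic signalling list on the left.

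Finally, the levels of the members were compared with each other over mice, as deviations in log2 CPM from the group means (22 mice, a description without a test). Chrm1 and Chrm3 varied together most closely of the 45 pairs, with Pearson's r of 0.827 and Spearman's rho of 0.782, and r of 0.879 over males, 0.578 over females and 0.776 without dominant male 1. Ache went with Chrnb2 (r = 0.679, rho = 0.678), with r of 0.740 over males and 0.416 over females. Chat, Slc5a7 and Slc18a3, which share the cholinergic neuron, had r of 0.308 to 0.402 with each other, from 0.338 to 0.570 over males and from 0.111 to 0.359 over females. Other pairs were as high or higher, among them Chat with Chrm2 (0.390, with 0.419 over males and 0.367 over females) and Chrm1 with Chrna4 (0.632, with 0.640 and 0.605), so that this likeness was not particular to the 3 genes. Of 14669 genes, those outside the 10 that were most like the mean of these 3 were Lbp (r = 0.770), Tmem104 (0.758), Prlr (0.753), Dnajb1 (0.711) and Mfsd2a (0.703). Over the 8 females alone r was 0.824, 0.616, 0.717, 0.232 and 0.483 in the same order, against 0.754 to 0.840 over males. Slc18a3 had r of 0.830 with that mean, of which it is a part, and the weight of its low counts on the order of these genes was not tested.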

How the data were processed

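The authors sequenced stranded, ribosomal RNA-depleted total RNA libraries of 22 right hemispheres, trimmed the reads with cutadapt 1.15 and bbduk after FastQC 0.11.8, mapped the remainder with STAR 2.6.0a on mm10, and obtained gene counts with featureCounts 1.6.2. The strand setting of the counting is not given in the sources used here. The deposited values are raw counts for 24421 genes, in a table for males and a table for females. Exon coordinates and lengths came from these tables.

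Groups and replicate numbers came from the labels. Counts were filtered with edgeR's expression filter (minimum count 10, minimum total 15), scaled with TMM factors and tested with the quasi-likelihood test of edgeR 4.0.16 (R 4.3.3), at a Benjamini-Hochberg adjusted p under 0.05. Rank was the only term within each sex. The rank effect between the sexes and the difference between the tables were fitted over all 22 mice, and cage was tested with rank in the fit. Log2 CPM used a prior count of 2, and intervals cover 2 SE on either side. Exact permutation tests were two-sided. The members and gene lists were chosen with earlier results of these data known. The named genes are the 10 members, up to 3 called genes of each list and comparison with the smallest p, and the 5 genes most like Chat, Slc5a7 and Slc18a3. Others are said to have been chosen after their values were seen, or serve as a check of sex or of shared exon bases. A further gene of the lists is not reported here by name.

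The replicate numbers pair the mice, since mice of the same number share a cage code. As a check, each mouse's deviation from its group mean was correlated across genes with that of its cage mate (mean 0.176 in males and 0.027 in females) and with those of mice of the other rank from other cages (-0.029 and -0.0090). All 54 pairs of mice within groups differed beyond sampling noise (mean chi-square per gene of 1.81 to 16.6). Alternatives were DESeq2 1.42.0, its size factors, no filter, a mean count of at least 100, the replicate block, removal of each sample's loess trend on exon length (span 0.3), all 22 mice in one fit, subsets of cages, ranks exchanged within cages in the permutation test, counts summed per cage, centring on the median, and each mouse left out in turn. The tests were also run on simulated data, and the outcome is not reported here. The counts per mouse set the precision: a count of 0 would allow up to 3 counts, and such limits cover counting error only.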

Additional observations from a re-analysis of the deposited data

Results flagged for a closer look

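Of 40 sets of 1 gene in 1 group, 3 had a mouse that stood apart from its group by Dixon's criterion, where chance gives about 1 in 20 sets. Chat had 8.56 CPM in submissive male 2, with the nearest submissive male at 6.21 CPM. Its cage mate, dominant male 2, had 7.65 CPM. Chrm2 had 20.2 CPM in submissive female 1, with the nearest submissive female at 18.3 CPM. Chrna7 had 17.4 CPM in dominant female 3, with the nearest dominant female at 15.7 CPM. None of these 3 genes was called for rank in edgeR's quasi-likelihood test.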

How the results depend on the processing

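Of the 10 genes, 0 were called for rank in males, and 0 for the rank effect between sexes, in every alternative, with the replicate block as without it. For rank in females the number called was 1 (Chrm1) with replicates 3 and 4 only, 0 with the replicate block (Chrm1 adjusted p = 0.149, Chrm3 0.180, edgeR), and 0 to 1 with each mouse left out, the 1 being Chrm1 without dominant female 2. Over the alternatives the adjusted p of Chrm1 ran from 0.0280 to 0.995 and that of Chrm3 from 0.0810 to 0.995. With the exon length trend removed, the log2 differences were 0.14 for Chrm1 and 0.19 for Chrm3. Between the tables the 4 genes were called in each alternative with a test, except Slc5a7 against males of replicates 5 to 7, while the share of all genes called ran from 25.6% to 46.1%. With a mean count of at least 100, Chat and Slc18a3 were not tested.

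Some values changed sign, and none of these was called. For rank in males Chrna4 was -0.0010 with DESeq2, -0.00018 with its size factors, -0.00024 without a filter and -0.00073 with a mean count of at least 100. Replicates 1 to 4 gave -0.070 for Chat, -0.0032 for Chrm2 and -0.0021 for Chrnb2. Replicates 5 to 7 gave -0.072 for Slc18a3, -0.00038 for Chrm1, -0.030 for Chrm3, -0.045 for Chrna4 and 0.13 for Chrna7. For rank in females, replicates 1 and 2 gave 0.35 for Slc5a7 and -0.058 for Chrna7, and replicates 3 and 4 gave -0.067 for Slc18a3. Between the tables, Chrna7 was -0.019 with the length trend removed and Chrna4 -0.032 against males of replicates 1 to 4. With each mouse left out, the ranges that crossed 0 for rank in males were -0.051 to 0.027 for Ache, -0.0013 to 0.16 for Chat, -0.016 to 0.076 for Chrm1, -0.0016 to 0.039 for Chrm2, -0.030 to 0.052 for Chrm3, -0.041 to 0.067 for Chrna4, -0.051 to 0.018 for Chrna7, -0.011 to 0.019 for Chrnb2, -0.024 to 0.13 for Slc18a3. For rank in females they were -0.075 to 0.0065 for Chrm2, -0.0061 to 0.043 for Chrna4, -0.075 to 0.30 for Slc18a3, -0.12 to 0.089 for Slc5a7, and between the tables -0.018 to 0.044 for Chrna4, -0.014 to 0.024 for Chrna7. The causes were not tested.

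Over all genes, the 14 calls for rank in females became 77 with DESeq2, 84 without a filter, 2 with a mean count of at least 100, 36 with the replicate block, 8 with the block and the length trend removed, 0 with the trend removed, 0 in one fit of 22 mice, 5 and 120 in replicates 1 and 2 and replicates 3 and 4, and 0 to 77 with each mouse left out. The 11 calls for cage in females became 5, 99 and 6 with DESeq2, no filter and the higher minimum. The 1 call for Gr groups became 2 and 20 with DESeq2 and no filter, and 0 with the higher minimum or the length trend removed. In males, 194 genes (119 with DESeq2) had an unadjusted p under 0.05 for rank and 0 were called.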
